A study of Mus musculus with 7 samples.

Results

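ISG_Mono, the cells annotated as monocytes with interferon-stimulated genes (ISGs), made up 2012 of the 11899 donor cells sorted from mouse epidermis. Membership was taken from the deposited cluster annotation, and the markers that came with the label were Isg15, Cxcl9 and Gbp2. The cells were CD11b+MHCII+ cells of female CD45.1 C57BL/6 donors, taken 3 weeks after bone marrow transplantation (BMT) into male CD45.2 C57BL/6 hosts that had been lethally irradiated. Of the 4 libraries, 3 carried the label BMT and 1 the label BMT plus T-cells, drawn as BMT + T cells in the plots and written BMT + T here. The design text of the series puts CD4 and Matahari CD8 T cells into the transplant, while the labels of the 3 BMT libraries name none, so what follows compares labels. The methods describe epidermis of pooled mice from independent sorts, so a library stands for a pool, and neither the pool of each library nor the age of the mice was given in the sources used here. The library names in the labels are DM1 and DM2 for BMT replicates 1 and 2, DMBMT for BMT replicate 3 and DMBMTT for BMT + T, and no label says whether this naming marks experiments.

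ISG_Mono held 1250 cells of BMT replicate 1, 678 of BMT replicate 2, 16 of BMT replicate 3 and 68 of the BMT + T library. Comparisons were made within each library against Mono, the classical monocyte cluster (938 cells), and MC, the monocyte-derived cells (2052 cells). A library entered a comparison with at least 20 cells in both clusters, which left BMT replicates 1 and 2 and the BMT + T library. The 16 cells of BMT replicate 3 are given as values beside these. Levels are mean UMIs per 10000 UMIs of a cell (CP10K), and differences are on the log2(CP10K + 0.1) scale. Cell barcodes shared between libraries numbered 0 to 5 for each pair, and no shared barcode was in ISG_Mono in both. The annotation was made from these same values, so differences between clusters are descriptions without a test.

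Interferons are secreted proteins that switch on genes of antiviral defence. Type I interferons act largely through the interferon-stimulated response element (ISRE) of genes such as Isg15, the Ifit family and Rsad2. Interferon-gamma, made by T and NK cells, acts through the gamma-activated site (GAS) and through IRF1, and is known for inducing guanylate-binding proteins, Cxcl9 and genes of antigen presentation. The groups overlap, and many genes answer to both interferons. Monocytes that enter inflamed skin meet either signal.

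Promoters of marker genes are shown to set these letters beside the levels that follow. In the RefSeq windows of build GRCm38.p6, from 250 bases before to 50 bases after the start of transcription, the letters GAAANNGAAA (ISRE core) and TTCNNNGAA (GAS) were searched on both strands. N stands for any base, matches of a motif may overlap each other, and capitals mark the matches. Isg15 (chr4:156200769-156201068, minus strand) held 3 overlapping ISRE cores, Ifit3 (chr19:34583279-34583578, plus strand) held 2, and Rsad2 (chr12:26456403-26456702, minus strand) held 1. Gbp2 (chr3:142620413-142620712, plus strand) held 1 ISRE core and no GAS, Gbp5 (chr3:142496684-142496983, plus strand) held 1 ISRE core and 2 GAS, and Cxcl9 (chr5:92328030-92328329, minus strand) held neither in this window.
Isg15: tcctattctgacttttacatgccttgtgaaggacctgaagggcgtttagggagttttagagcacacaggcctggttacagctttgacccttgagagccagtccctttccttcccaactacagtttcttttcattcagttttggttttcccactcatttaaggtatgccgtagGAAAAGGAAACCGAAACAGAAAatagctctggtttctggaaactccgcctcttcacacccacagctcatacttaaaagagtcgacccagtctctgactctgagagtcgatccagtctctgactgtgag
Ifit3: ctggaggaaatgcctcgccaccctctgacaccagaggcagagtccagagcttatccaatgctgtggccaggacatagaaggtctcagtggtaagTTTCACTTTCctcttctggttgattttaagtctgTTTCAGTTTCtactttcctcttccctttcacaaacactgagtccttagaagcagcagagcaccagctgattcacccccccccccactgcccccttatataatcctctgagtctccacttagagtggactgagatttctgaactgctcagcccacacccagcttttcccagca
Rsad2: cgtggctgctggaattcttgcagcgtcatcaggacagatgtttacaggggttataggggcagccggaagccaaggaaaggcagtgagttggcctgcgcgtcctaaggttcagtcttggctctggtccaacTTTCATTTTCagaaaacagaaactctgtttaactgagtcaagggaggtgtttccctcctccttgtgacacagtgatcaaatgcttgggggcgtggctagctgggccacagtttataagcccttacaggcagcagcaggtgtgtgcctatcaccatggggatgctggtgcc
Gbp2: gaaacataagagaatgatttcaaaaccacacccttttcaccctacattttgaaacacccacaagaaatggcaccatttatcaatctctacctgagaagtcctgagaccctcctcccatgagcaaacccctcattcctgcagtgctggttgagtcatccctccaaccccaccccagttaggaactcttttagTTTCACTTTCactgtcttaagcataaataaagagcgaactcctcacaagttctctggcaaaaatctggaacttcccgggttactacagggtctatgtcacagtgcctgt
Gbp5: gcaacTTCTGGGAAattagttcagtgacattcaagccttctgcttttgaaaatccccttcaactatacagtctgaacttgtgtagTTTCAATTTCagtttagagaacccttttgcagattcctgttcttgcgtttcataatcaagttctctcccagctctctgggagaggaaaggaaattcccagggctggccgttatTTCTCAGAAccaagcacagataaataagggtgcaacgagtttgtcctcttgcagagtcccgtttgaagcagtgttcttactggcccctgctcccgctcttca
Cxcl9: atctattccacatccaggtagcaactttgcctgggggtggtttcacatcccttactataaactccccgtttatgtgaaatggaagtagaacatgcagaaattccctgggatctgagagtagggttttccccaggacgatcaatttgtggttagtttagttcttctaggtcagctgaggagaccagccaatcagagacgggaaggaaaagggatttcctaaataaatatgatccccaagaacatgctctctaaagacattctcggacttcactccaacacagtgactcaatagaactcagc

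The ISRE core was present in 3.44% of all 32851 windows and GAS in 8.30%. Of 46 antiviral genes, 35 were matched to 42 windows, and 57.1% of these windows held the ISRE core and 16.7% GAS. Of 23 interferon-inducible GTPases, 14 were matched to 15 windows, of which 80% held the ISRE core and 46.7% GAS. All 7 GTPase genes with GAS also held the ISRE core, as against 4 of the 7 antiviral genes with GAS. Among the matched GTPase genes, Igtp, Tgtp1, Tgtp2 and Gm12250, which held GAS, had no level here. Neither had Ifi47, 9930111J21Rik1 and 9930111J21Rik2, so the shares of windows are not those of the GTPases whose levels follow. Monocyte genes gave 0 of 18 windows with the ISRE core and 5.56% with GAS. A match is a run of letters and was not tested as a binding site. Several antiviral genes are also neighbours. Ifit1, Ifit1bl1, Ifit2, Ifit3 and Ifit3b lie within 112.4 kb of chromosome 19, Rsad2 and Cmpk2 within 37.1 kb of chromosome 12, and Gbp2, Gbp2b, Gbp3, Gbp5 and Gbp7 within 141.1 kb of chromosome 3.

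Of the label's markers, Isg15 was higher in ISG_Mono than in Mono and MC in every library. Cxcl9 and Gbp2 were higher than in MC, but lower than in Mono in BMT replicates 1 and 2. The Isg15 difference from Mono was 0.58, 0.92 and 2.175 in BMT replicates 1 and 2 and BMT + T, so not beyond 1 in each. The Cxcl9 difference from MC was 0.36 and 0.56 in BMT replicates 1 and 2. Isg15 encodes a ubiquitin-like protein that is attached to other proteins after interferon exposure. Its level in ISG_Mono was 9.33, 8.13 and 24.3 CP10K in BMT replicates 1 to 3 and 11.5 in the BMT + T library. In Mono it was 6.22, 4.25, 3.91 and 2.47 CP10K, and in MC 2.56, 1.67, 3.75 and 1.90. ISG_Mono lay above Mono and MC in 4 of 4 libraries, and the groups did not overlap. Among clusters with at least 20 cells ISG_Mono ranked 1 of 8, 1 of 9 and 1 of 7, with Hmox1_Mono next in BMT replicate 1 at 9.03 CP10K. Below 20 cells, the 11 cells of S100a_Mono in BMT replicate 1 stood higher, at 25.9 CP10K.

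Cxcl9, a chemokine that draws in T cells bearing CXCR3, was at 12.4, 14.5 and 16.4 CP10K in ISG_Mono of the BMT replicates and at 7.23 in the BMT + T library. Mono had 26.1, 19.6, 0.975 and 2.76 CP10K. ISG_Mono was therefore below Mono in BMT replicates 1 and 2 and above it in the other 2 libraries. Gbp2, a guanylate-binding protein that attacks intracellular microbes, was at 5.62, 7.16, 6.89 and 5.31 CP10K in ISG_Mono against 10.9, 12.5, 4.87 and 2.62 in Mono. It showed the same change of side. Against MC, at 9.66, 9.86, 2.75 and 2.68 CP10K of Cxcl9 and 2.895, 3.64, 1.18 and 1.14 of Gbp2, ISG_Mono was higher in 4 of 4 libraries for both genes.

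**Figure D1:**
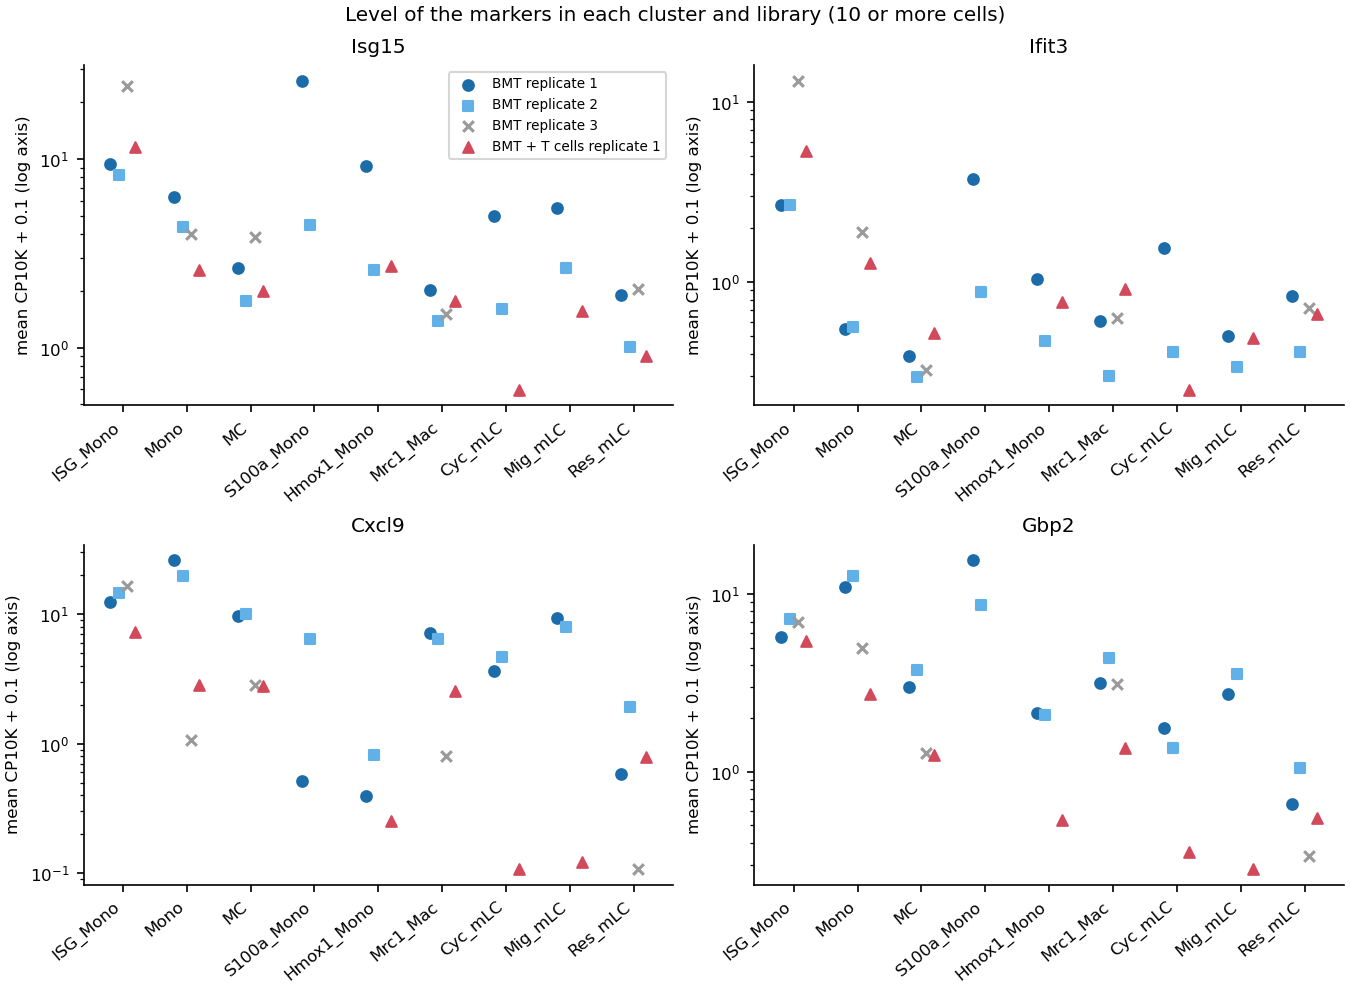
Mean CP10K + 0.1 on a log axis of Isg15, Ifit3, Cxcl9 and Gbp2 in the 9 annotated clusters, with 1 symbol for each library that has 10 or more cells in the cluster. Isg15 and Ifit3 of ISG_Mono lie above Mono and MC in every library, while Cxcl9 and Gbp2 of Mono lie above ISG_Mono in BMT replicates 1 and 2.

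Ifit2 and Ifit3 belong to the Ifit family, whose proteins bind foreign RNA and block its translation. Ifit3 was at 2.58, 2.565, 12.99 and 5.27 CP10K in ISG_Mono, against 0.453, 0.467, 1.805 and 1.17 in Mono and 0.196 to 0.420 in MC. Ifit2 was at 2.95, 4.78, 6.41 and 4.24 CP10K, against 0.794 to 1.42 in Mono and 0.175 to 0.521 in MC. Both ranked 1 among the clusters with at least 20 cells in each of the 3 libraries. With each cell thinned to 2000 UMIs, Isg15 was detected in 66.3%, 66.7% and 66.7% of ISG_Mono cells of BMT replicates 1 and 2 and BMT + T. In the same order the shares were 57.1%, 46.3% and 19.3% for Mono and 34.9%, 23.1% and 29.6% for MC. In Res_mLC, the resident monocyte-derived Langerhans cells, they were 26.7%, 12.2% and 10.5%. The thinning left out 40, 14 and 2 ISG_Mono cells, 6, 20 and 6 of Mono and 42, 33 and 3 of MC. Of 105, 1175 and 320 Res_mLC cells it left out 19, 48 and 45. Unthinned shares of ISG_Mono with Isg15 were 89.9%, 89.5% and 95.6% at median depths of 13464, 7836 and 15900.5 UMIs. Median depth of Res_mLC was 10082 and 7343 UMIs in BMT replicates 1 and 2 and 12852 in the BMT + T library. Rsad2 was detected after thinning in 13.6%, 25.8% and 19.7% of ISG_Mono cells and in 2.33%, 1.77% and 0% of Res_mLC. The last share had an exact 95% binomial interval up to 1.33%, and unthinned it was 3.12%.

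Against Mono, 50 of 7138 genes were higher in ISG_Mono by more than 1 on the log2 scale in each of the 3 libraries (0.700%), and 30 were lower (0.420%). Leaving out BMT replicate 1 gave 86 and 55 genes, and leaving out the BMT + T library gave 67 lower genes. A pseudocount of 0.01 gave 109 and 66, and a pseudocount of 1 gave 8 and 5. Against MC, 64 of 7174 genes were higher (0.892%) and 24 lower (0.335%), and without the BMT + T library 48 were lower. Pseudocounts of 0.01 and 1 gave 121 and 13 higher and 57 and 1 lower genes. These counts follow from the size rule alone and carry no error rate.

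The antiviral genes were the largest list among those higher in ISG_Mono. Of the 46 genes, all were in the table and 45 passed the filter of 0.1 CP10K (Dhx58 did not). Against Mono, 14 were beyond 1 in all 3 libraries, 37 were above 0 in all 3 and 0 were below 0 in all 3. Over all 7138 genes, 1554 were above 0 and 1444 below 0 in all 3. Their median difference was 0.84, at 0.64 and 0.70 in BMT replicates 1 and 2 and 1.30 in the BMT + T library, beside -0.02 over all 7138 genes. In BMT replicate 3, 43 of 45 were above 0, with a median of 1.47. Against MC, 28 were beyond 1 in all 3 libraries, 44 were above 0 in all 3, as were 1599 of all 7174 genes, and the median was 1.56 beside -0.02 over all genes.

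Rsad2 encodes viperin, an enzyme that makes a chain-terminating nucleotide against viral replication. It was at 1.44, 4.35 and 7.31 CP10K in ISG_Mono of the BMT replicates and 2.11 in the BMT + T library. Mono had 0.220, 0.463, 0.743 and 0.328 CP10K, and MC had 0.0795 and 0.107 in BMT replicates 1 and 2 and 0 UMIs in the other 2 libraries, on 18 and 30 cells. The ISG_Mono values did not overlap with either cluster. The difference from Mono was 2.54 ± 0.39 (SD, n = 3), the largest mean in the antiviral list. Ifit1bl1 followed at 2.475 ± 0.31, Ifit3 at 2.195 ± 0.10 and Ifit1 at 2.14 ± 0.86. Mx1, a GTPase that traps viral nucleocapsids, was at 1.65 ± 0.17, the oligoadenylate synthetase-like gene Oasl1 at 1.69 ± 0.23 and the exonuclease gene Isg20 at 1.59 ± 0.14. Bst2 encodes tetherin, which holds budding virus at the cell surface. It was at 5.81, 5.60, 12.3 and 6.84 CP10K in ISG_Mono and at 2.56, 2.34, 3.57 and 2.50 in Mono, a difference of 1.26 ± 0.14.

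Not every antiviral gene separated ISG_Mono from Mono. Ifitm3, which blocks virus entry at endosomes, was at 13.8, 13.1, 43.35 and 18.1 CP10K in ISG_Mono and at 24.1, 23.25, 29.9 and 13.1 in Mono. It was thus below Mono in BMT replicates 1 and 2 and above it in the other 2 libraries, while against MC, at 1.48 to 3.14 CP10K, it was higher in all 4. Zbp1, a sensor of Z-form nucleic acid, had the same pattern, with -0.57, -0.58 and 0.49 in the 3 libraries. Ifi205, of the DNA-sensor family on chromosome 1, had the widest spread of the 45, from -0.59 and -0.10 to 3.39. Its level in Mono was 7.56, 5.03, 1.72 and 0.394 CP10K, while ISG_Mono had 4.99, 4.685, 4.205 and 5.08.

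Interferon-inducible GTPases, which target the vacuoles of intracellular microbes, were close to Mono and above MC. Of 23 genes in the list, 12 were in the table and 10 passed the filter against Mono. None was beyond 1 in all 3 libraries in either direction. In all 3, 1 (Irgm2) was above 0 and 1 (Gbp2b) below 0, beside 1554 and 1444 of all 7138 genes. The median was -0.09 in BMT replicate 1 and -0.37 in BMT replicate 2, but 0.185 in the BMT + T library and 0.41 in BMT replicate 3. Gbp5, which helps to assemble inflammasomes, was at 0.875, 1.16, 1.32 and 0.890 CP10K in ISG_Mono and at 1.504, 1.775, 0.366 and 0.373 in Mono. The spread of ISG_Mono over libraries was thus smaller than that of Mono. Iigp1, an immunity-related GTPase, was at 3.64, 5.10, 2.87 and 2.48 CP10K against 5.155, 6.48, 1.72 and 2.12 in Mono. Against MC, 8 GTPase genes passed the filter. They were above 0 in all 3 libraries, as were 1599 of all 7174 genes. Their median was 1.08, beside -0.02 over all genes, and 0 were beyond 1 in all 3.

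Effector genes of activated macrophages had a similar division. Of 26, 25 were in the table and 21 passed the filter against Mono. In BMT replicates 1 and 2, 4 of the 21 were above 0, as against 16 in the BMT + T library and 13 in BMT replicate 3. Cd274, which encodes the checkpoint ligand PD-L1, was at 1.69, 1.415, 1.77 and 1.37 CP10K in ISG_Mono and at 3.17, 2.96, 1.49 and 0.539 in Mono. Cd40, a co-stimulatory receptor, was at 3.35, 3.765, 4.64 and 2.99 CP10K against 5.93, 4.68, 1.32 and 0.462. For both, ISG_Mono was below Mono in BMT replicates 1 and 2 and above it in the other 2 libraries. Nos2, the inducible nitric oxide synthase, was lower in ISG_Mono in all 4, at 0.564, 0.532, 0.0317 and 0.340 CP10K against 2.65, 2.29, 1.64 and 0.385. Against MC, 15 of 21 effector genes were above 0 in all 3 libraries, beside 1599 of all 7174 genes, and Fcgr1, the high-affinity IgG receptor gene, was beyond 1 in all 3 at 1.68 ± 0.11.

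**Figure D2:**
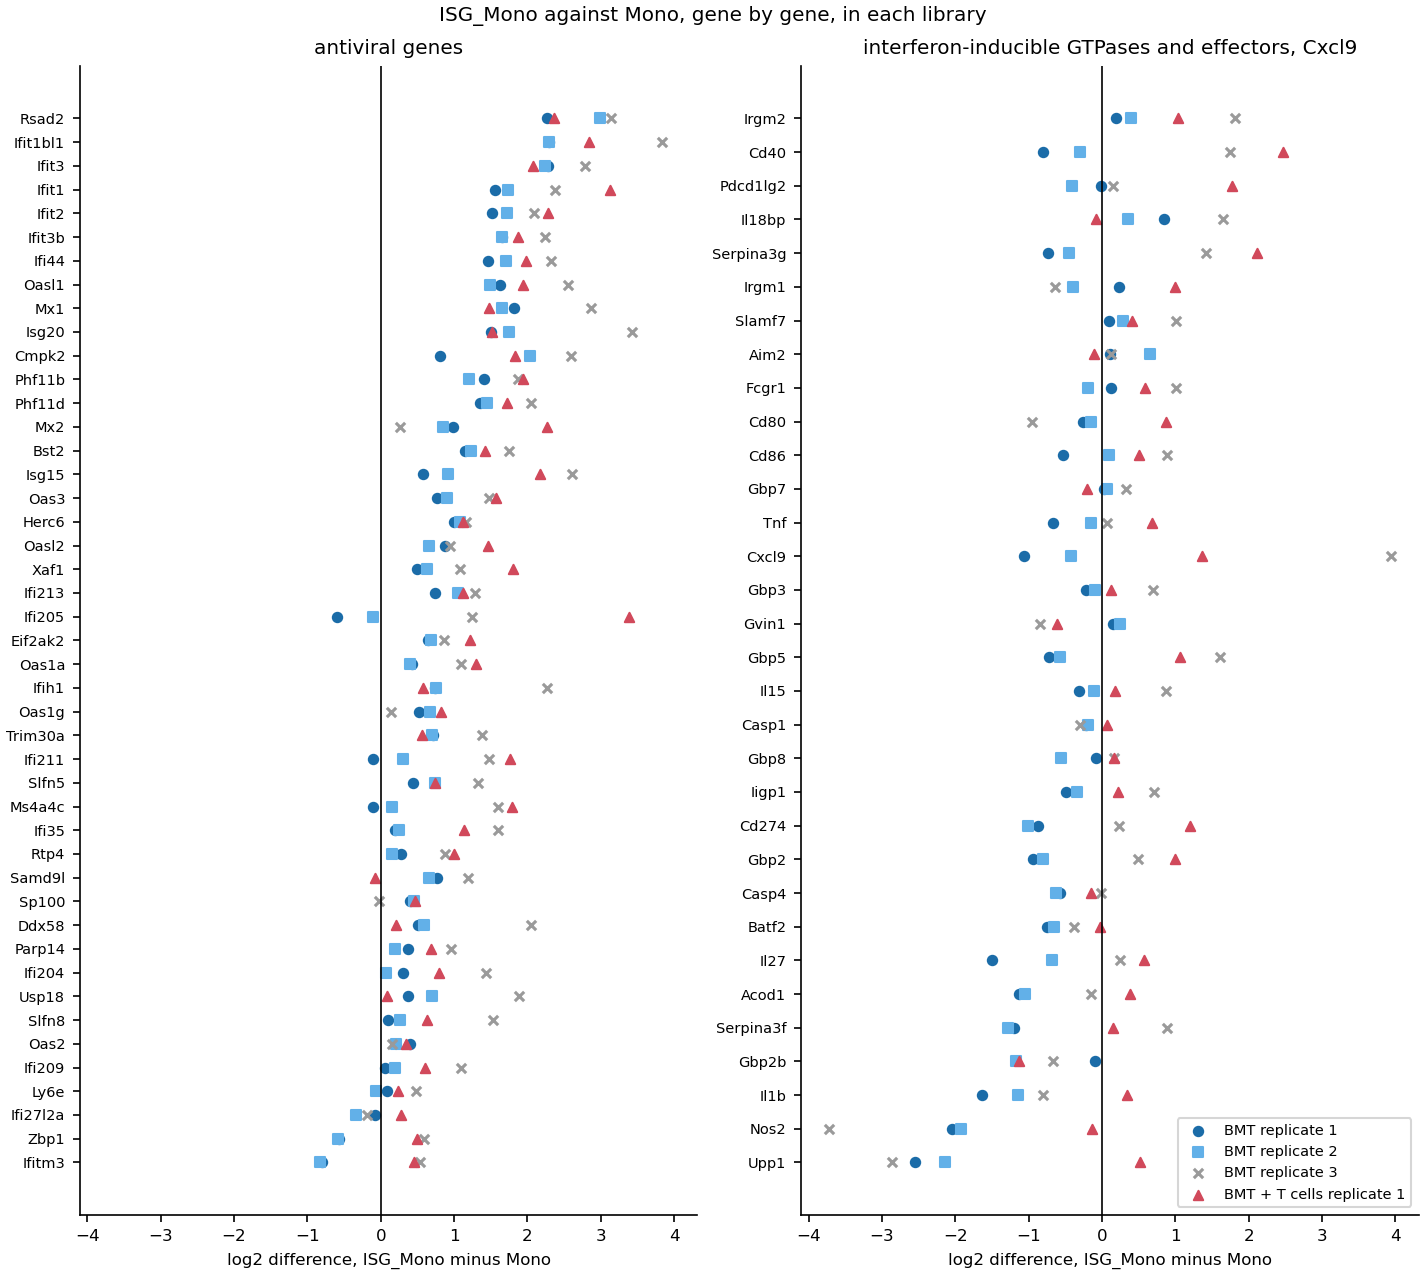
Log2 difference ISG_Mono minus Mono of each gene that passed the filter, with 1 symbol per library, for 45 antiviral genes (left) and for GTPase and effector genes with Cxcl9 (right). Antiviral genes lie mostly right of 0 in all libraries, while on the right most symbols of BMT replicates 1 and 2 are below 0 and most of the BMT + T library above it.

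The within-library difference from Mono was then compared between labels with limma, a test added after the data had been seen and with its genes named for their change of side. The lone BMT + T library has no spread of its own and was assumed to vary like the other 2. Cxcl9 differed by 2.11 (SE 0.25, adjusted p = 6.08e-04, limma), Gbp2 by 1.86 (SE 0.19, adjusted p = 4.27e-04, limma), Gbp5 by 1.71 (SE 0.18, adjusted p = 4.65e-04, limma) and Cd274 by 2.14 (SE 0.185, adjusted p = 2.41e-04, limma), all higher under BMT + T. Isg15 differed by 1.43 (adjusted p = 0.006, limma), with the same sign in every library, and Ifit3 by -0.18 (adjusted p = 0.767, limma). In all, 888 of 7138 genes passed an adjusted p of 0.05 and a difference of 1, of which 315 were higher and 573 lower under BMT + T, and 3184 had an unadjusted p under 0.05. With 10 or more cells, which brings in BMT replicate 3, 0 genes passed, 707 had an unadjusted p under 0.05, and Cxcl9 was at 0.55 (adjusted p = 0.945, limma) and Gbp2 at 1.41 (adjusted p = 0.532, limma). In BMT replicate 3 the difference from Mono was 3.94 for Cxcl9, 0.49 for Gbp2, 1.61 for Gbp5 and 0.23 for Cd274, on the side of BMT + T. Of the 14 GTPase, effector and marker genes with a tested change of side, 10 were above 0 there. The 4 below 0 were Acod1, Cd80, Il1b and Upp1. The label cannot be told apart from other differences between these libraries.

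Genes of the interferon pathway itself lay closer to 0. Of 20 signalling genes, 18 were in the table and 17 passed the filter against Mono, with 0 beyond 1 in all 3 libraries and a median of -0.16. Stat2 and Irf9, which carry the type I response to the nucleus, were above 0 in all 3 libraries at 0.32 ± 0.30 and 0.255 ± 0.16. Irf1, the mediator of much of the gamma response, was lower than Mono in all 3 at -0.81 ± 0.33. The receptor genes Ifnar1, Ifnar2, Ifngr1 and Ifngr2 had mean differences from -0.58 to 0.25. Irf7, Irf8 and 10 interferon genes were not analysed here.

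Of 21 chemokine genes 13 were listed and passed the filter against Mono, where 0 were higher and 2 lower (Ccl7 and Ccl8) beyond 1 in all 3 libraries, and 12 passed it against MC, where 3 were higher (Ccl4, Ccl5 and Ccl12) and 2 lower (Ccl17 and Ccl22). Ccl5, which attracts T cells and monocytes, was at 16.4, 10.7, 21.7 and 7.85 CP10K in ISG_Mono, 13.3, 9.89, 2.515 and 1.38 in Mono, and 3.59, 2.21, 2.035 and 0.0497 in MC. It was higher than MC by 3.37 ± 2.04, beyond 1 in all 3 libraries. Ccl17, a ligand of CCR4 made by dendritic cells, was at 13.05, 11.9, 0.698 and 6.025 CP10K in ISG_Mono and at 75.1, 79.9, 37.3 and 36.5 in MC. The values did not overlap, and the difference was -2.61 ± 0.11. Ccl8 was at 0.159, 0.915 and 1.94 CP10K in the 3 libraries with at least 20 cells and at 1.60, 9.18 and 13.8 in Mono, a difference of -2.89 ± 0.26. In the 16 cells of BMT replicate 3, however, it was at 17.6 CP10K against 10.6 in Mono. Ccl7 behaved likewise, at 5.09 against 1.56 CP10K there and -3.04 ± 1.66 in the 3 libraries. Cxcl16, whose product is a membrane-bound chemokine, was at 10.8 to 19.7 CP10K in ISG_Mono, near MC at 13.2 to 18.6 and above Mono at 3.68 to 13.1 in every library.

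The class II genes H2-Aa, H2-Ab1, H2-Eb1, H2-Oa, H2-DMb1 and Cd74 were above Mono in all 3 libraries, by less than 1 in their means, whereas H2-DMa was at -0.11, 0.09 and 0.345. H2-Ab1, a chain of the class II molecule, was at 207, 178, 132 and 209 CP10K in ISG_Mono, 128, 95.9, 91.6 and 108 in Mono, and 179.7, 172, 159.6 and 193 in MC. ISG_Mono was above Mono in 4 of 4 libraries, by 0.84 ± 0.13 in the 3 with at least 20 cells, and differed from MC by 0.12 ± 0.08. H2-Eb1 and H2-Aa were above Mono by 0.765 ± 0.11 and 0.58 ± 0.08. Of 23 genes for antigen presentation, 21 were in the table and 20 passed the filter against Mono, of which 7 were above 0 in all 3 libraries, 1 (H2-D1) below 0 and 0 beyond 1, beside 1554 above and 1444 below 0 among all 7138 genes. Of the class I genes, H2-T22 was above Mono in all 3 at 0.51 ± 0.41, H2-Q7 had a mean of 0.345 ± 0.70, H2-K1 of 0.07 ± 0.10 and H2-D1 of -0.13 ± 0.07. The peptide loading genes Tapbp and Tap1 were at 0.32 ± 0.64 and -0.02 ± 0.45.

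Markers of classical monocytes were much lower in ISG_Mono than in Mono. Of 20 genes, 19 were in the table and 18 passed the filter against Mono. All 18 were below 0 in the 3 libraries and 9 were beyond 1 in each, beside 1444 and 30 of all 7138 genes. The median was -1.80, beside -0.02 over all genes. In BMT replicate 3 the median was -0.76, and 1 of the 18 (Chil3, at 0.32) was above 0. Plac8 was at 1.63, 3.30, 4.91 and 0.983 CP10K in ISG_Mono, 19.8, 24.25, 13.8 and 5.38 in Mono, and 0.160, 0.175, 0 and 0 in MC. ISG_Mono thus lay between Mono and MC in 4 of 4 libraries. Ly6c2, which encodes the surface antigen that marks classical monocytes, lay between them as well, at 3.94, 3.92, 6.22 and 2.06 CP10K against 12.8, 14.15, 8.69 and 4.07 in Mono and 0.587 to 1.41 in MC. Lyz2, the lysozyme gene, differed from Mono by -2.35 ± 0.37 and from MC by 1.04 ± 0.16. Csf1r, the receptor that monocytes and macrophages need for survival, was near Mono at -0.08 ± 0.09.

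Genes of Langerhans and dendritic cells were split against Mono, with 7 of 16 above 0 and 4 below 0 in all 3 libraries. Among all 7138 genes, 1554 were above 0 and 1444 below 0 in all 3. Epcam, an adhesion molecule of Langerhans cells and epithelium, was at 3.30, 3.81, 1.53 and 8.23 CP10K in ISG_Mono, 0.245, 0.345, 0.2175 and 0.659 in Mono, and 9.60, 8.63, 3.60 and 12.5 in MC. It had the largest smallest-library difference from Mono of all genes, 3.135, and a mean of 3.30 ± 0.16. The order Mono, ISG_Mono, MC held in 4 of 4 libraries. Dcstamp, a fusion protein gene of dendritic cells and osteoclasts, followed the same order, at 0.641, 0.771, 0.202 and 0.817 CP10K between 0.0144 to 0.1555 in Mono and 1.91 to 3.37 in MC. Cd207, which encodes langerin, stayed low at 0.0496 to 0.463 CP10K, whereas Res_mLC had 1.31, 5.495 and 9.504 in the 3 libraries. Of 20 genes in this list, 16 passed the filter. Against Mono, 4 were higher beyond 1 in all 3 libraries (Epcam, Mfge8, Dcstamp and Cldn1) and 1 lower (Clec10a). Id2, Mgl2 and Irf4 were also below Mono in all 3, at -0.60, -1.13 and -0.65. Against MC 0 were higher and 4 lower (Ccl17, Dcstamp, Mgl2 and Irf4), so Mgl2 and Irf4 lay below both neighbours. In BMT replicate 3, Mfge8 was below Mono, at 0.207 against 0.446 CP10K, and Cldn1 differed from Mono by 0.65. There 6 of the 16 genes were above 0 against Mono, with a median of -0.71.

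**Figure D3:**
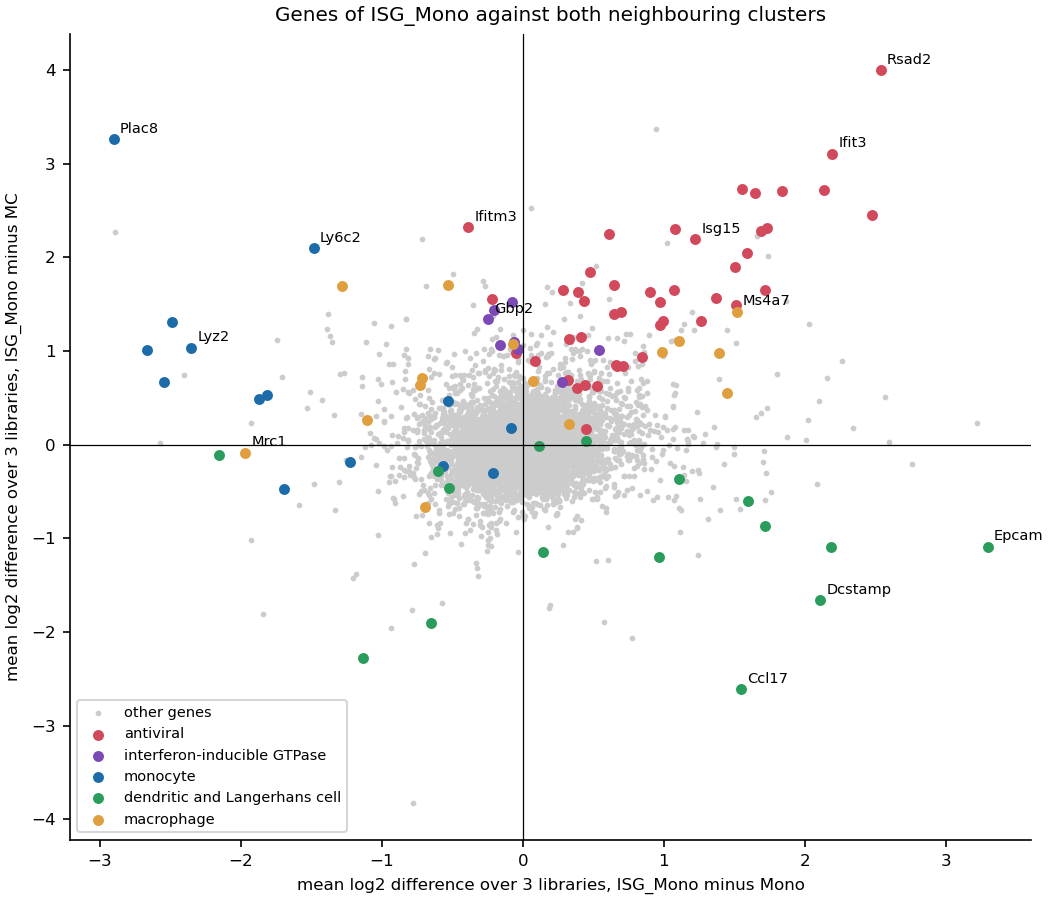
Mean log2 difference over 3 libraries of ISG_Mono minus Mono (horizontal) and ISG_Mono minus MC (vertical) for genes that passed the filter in both, coloured by list. Most antiviral genes lie upper right, most monocyte genes, such as Plac8, upper left, and most Langerhans and dendritic cell genes, such as Epcam, lower right. Exceptions include Ifitm3 and Zbp1 of the antiviral list, upper left. Fn1 and Ccr2 of the monocyte list lie lower left, as do Mgl2, Irf4, Ahr, Id2 and Clec10a of the Langerhans and dendritic cell list, while Runx3 lies upper right. Both axes share the ISG_Mono libraries.

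Macrophage genes were split against Mono too, with a median of -0.07, 5 of 15 above 0 and 6 below 0 in all 3 libraries. The same counts over all 7138 genes were 1554 and 1444. C1qa, a subunit of the first complement component, was at 26.3, 29.7, 29.95 and 35.1 CP10K in ISG_Mono, 6.315, 10.2, 16.4 and 23.04 in Mono, and 13.4, 14.8, 9.61 and 18.02 in MC. ISG_Mono was above both in 4 of 4 libraries and ranked 2 among the clusters, after Mrc1_Mac, in all 3 libraries with at least 20 cells. Ms4a7, a membrane protein of macrophages, was at 7.42, 7.73, 11.1 and 8.31 CP10K against 1.89 to 3.94 in Mono and 1.72 to 4.09 in MC. Mrc1, the mannose receptor gene, was lower than Mono by 1.97 on the log2 scale (SD 1.04). Adgre1, Zeb2, Hmox1, Lpl and Apoe were below Mono in all 3 as well, with means of -0.53, -0.71, -0.73, -0.70 and -1.28. Of 18 macrophage genes 17 were listed and 15 passed the filter, with Ms4a7 and Cd63 higher than Mono and Mrc1 lower in all 3 libraries. Against MC 4 were higher (Ms4a7, C1qc, Adgre1 and Apoe) and 0 lower.

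Beyond the lists, 30 of the 50 genes higher than Mono and 17 of the 30 lower belonged to no list. Among the 10 with the largest smallest-library difference were H2-M2, a nonclassical class I gene, at 3.22 ± 0.765, Kctd14 at 2.76 ± 0.36, Cd72, an inhibitory co-receptor gene, at 2.57 ± 0.41, the transporter gene Slc36a2 at 2.34 ± 0.39 and Dnase1l3 at 2.27 ± 0.25. Dnase1l3 encodes a secreted nuclease that clears DNA from dying cells. It was at 12.9, 13.4, 8.42 and 5.73 CP10K in ISG_Mono and at 3.18, 2.37, 0.307 and 1.03 in Mono. From MC the mean difference was smaller, at 0.23 for H2-M2, -0.21 for Kctd14, 0.50 for Cd72, 0.18 for Slc36a2 and 0.90 for Dnase1l3. Lower than Mono outside the lists were Ifitm6 at -2.91 ± 0.17, the transcription factor gene Klf2 at -2.57 ± 0.75 and Ly6a2 at -2.72 ± 0.87. Against MC, 26 of the 64 higher genes and 19 of the 24 lower ones were in no list. Higher was Ifi206 (2.16 ± 0.21). Lower were Alox15, a lipoxygenase gene, at -2.80 ± 0.24, the water and glycerol channel gene Aqp3 at -2.50 ± 0.22, Mucl1 at -3.83 ± 2.60, the lipid receptor gene Cd36 at -1.96 ± 0.25, the elastase gene Mmp12 at -2.06 ± 0.35, Actn1, Rhoc and Flt1.

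Summed over the antiviral list, ISG_Mono cells had medians of 107, 127, 240.6 and 137 CP10K in BMT replicates 1 to 3 and the BMT + T library. Medians of Mono were 95.7, 107, 76.2 and 59.4 CP10K, and quartiles of the clusters overlapped in BMT replicates 1 and 2. By this median, ISG_Mono ranked 1 among clusters with at least 20 cells in BMT replicate 2 and the BMT + T library, and 2 in BMT replicate 1 behind the 24 cells of Hmox1_Mono. Within ISG_Mono, Isg15 went with the rest of the antiviral list, with Spearman coefficients over cells of 0.705, 0.700, 0.879 and 0.788. Gbp2 followed that sum less closely (0.277, 0.145, 0.401 and 0.277), and Cxcl9 hardly at all (0.028, -0.061, -0.218 and -0.072). Cxcl9 and Gbp2 had coefficients of 0.397, 0.362 and 0.478 with each other, and -0.120 in the 16 cells of BMT replicate 3. Cells of a library share its depth and processing, and the antiviral sum had coefficients of 0.045, -0.124, -0.124 and -0.279 with total UMIs.

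Latent time, the position along RNA velocity deposited by the authors (0 to 1), was low in ISG_Mono. Its median was 0.159, 0.184, 0.209 and 0.213, against 0.207, 0.244, 0.307 and 0.313 in Mono and 0.195, 0.223, 0.215 and 0.209 in MC. ISG_Mono was below Mono in 4 of 4 libraries and had the lowest median of all clusters with at least 20 cells in BMT replicates 1 and 2. In the BMT + T library the median of MC was lower. Latent time was itself computed from the transcripts of these cells.

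**Figure D4:**
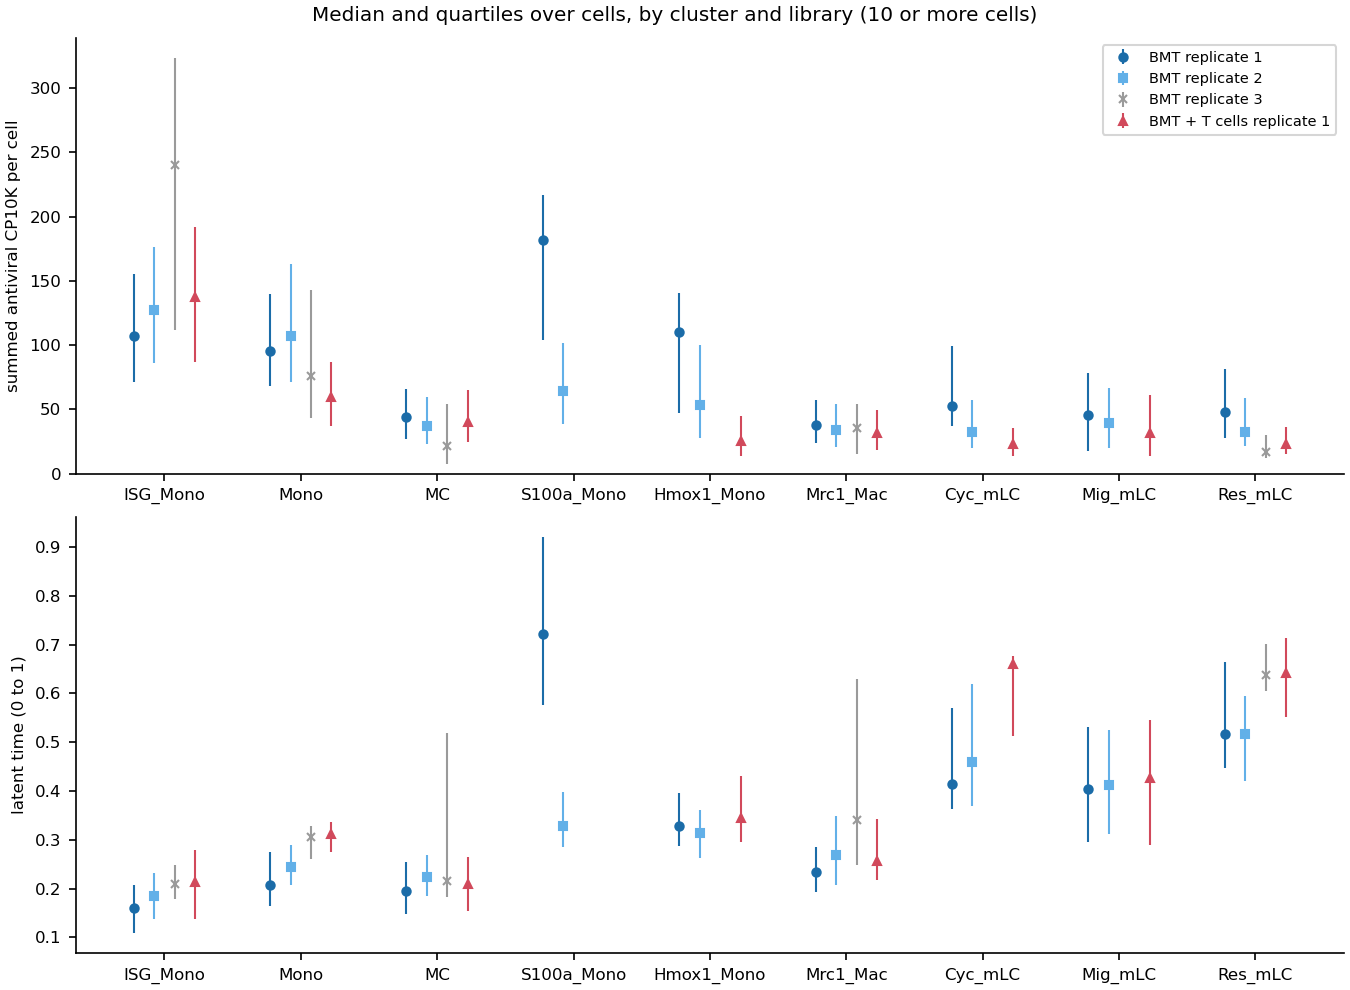
Median and quartiles over cells of the summed antiviral CP10K (upper panel) and of latent time (lower panel) for each cluster and library with 10 or more cells. ISG_Mono has medians of 107 to 240.6 CP10K in the upper panel and of 0.159 to 0.213 in the lower.

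Markers of other cell types were scarce in ISG_Mono. Of 13 T and NK cell genes 9 were listed, and their summed level was 0.0475 to 0.202 CP10K in ISG_Mono, 0.0863 to 0.131 in Mono and 0 to 0.107 in MC. In the BMT + T library 8 of the 9, among them Cd3d, Cd4, Cd8a and Nkg7, were at 0 in ISG_Mono. Of 10 keratinocyte genes 7 were listed, summing to 0.231 to 1.30 CP10K in ISG_Mono, 0.491 to 1.75 in Mono and 0.164 to 0.918 in MC. Of 10 neutrophil genes 8 were listed, at 0.226 to 0.534 CP10K in ISG_Mono, 0.420 to 1.37 in Mono and 0.121 to 0.958 in MC. Genes of B cells, plasmacytoid dendritic cells and mast cells (5 of 10 listed) summed to 0.0386 to 0.603 CP10K in ISG_Mono, 0.00769 to 0.425 in Mono and 0.0122 to 0.352 in MC. Cycling genes were at 9.07 to 15.6 CP10K, within 8.68 to 17.1 for Mono and MC. Most of this sum in ISG_Mono was Tubb5, at 6.875 to 8.605 CP10K. Mki67 was at 0 to 0.476 CP10K in ISG_Mono and at 0.2875 to 1.222 in Mono and MC. The part of such cells in the differences was not tested.

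ISG_Mono took very different shares of the 4 libraries. It was 48.6% of the donor cells of BMT replicate 1 (95% Clopper-Pearson interval 46.65 to 50.55), 8.09% of replicate 2 (7.51 to 8.69), 7.08% of replicate 3 (4.10 to 11.2) and 9.46% of the BMT + T library (7.42 to 11.8). BMT replicate 1 stood apart, and the other 3 intervals overlapped. The intervals cover counting error only. A permutation of 1 library against 3 cannot give a p below 0.25, so none was run. BMT replicate 1 alone supplied 62.1% of all ISG_Mono cells and BMT replicate 2 another 33.7%, so averages here weight libraries and not cells.

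**Figure D5:**
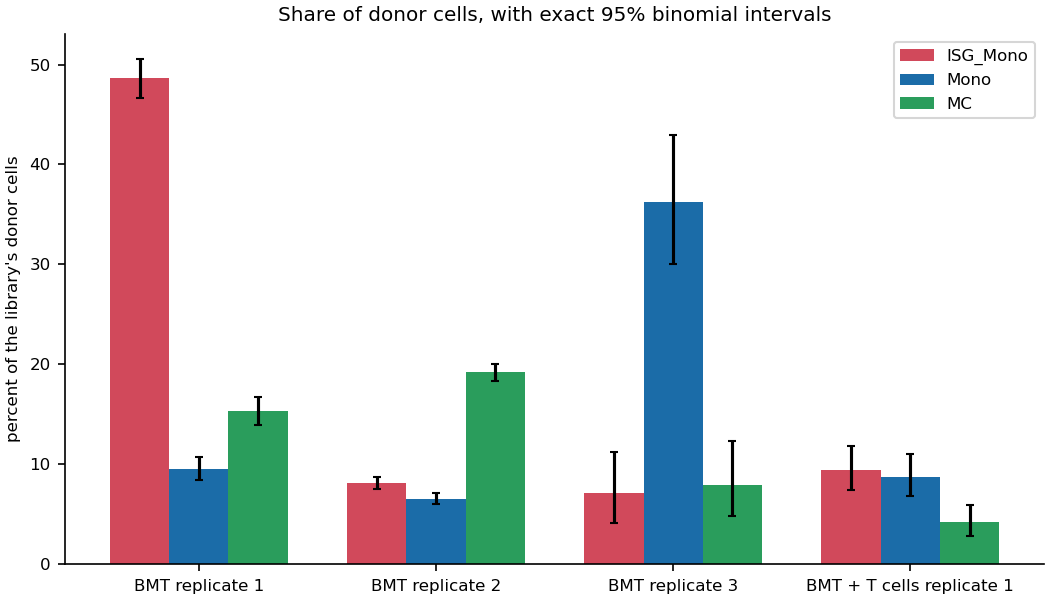
Percent of each library's donor cells in ISG_Mono, Mono and MC, with bars starting at 0 and exact 95% binomial intervals. ISG_Mono is 48.6% of BMT replicate 1 and 7.08 to 9.46% of the other 3 libraries.

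Within ISG_Mono, the BMT + T library was compared with BMT replicates 1 and 2 by limma, with 1 residual degree of freedom and the lone library assumed to vary like the others. Of 6759 genes, 102 were higher (1.51%) and 75 lower (1.11%) under BMT + T. The interferon markers were mostly outside this set. Isg15 differed by 0.40 (adjusted p = 0.423, limma), Gbp2 by -0.25 (adjusted p = 0.658, limma), Cxcl9 by -0.88 (adjusted p = 0.0229, limma), under the fold threshold, and Ifit3 by 1.01 (adjusted p = 0.00681, limma). Genes with the largest differences among those outside both BMT libraries were, on the higher side, Trp53i11 (2.14), the platelet factor gene Pf4 (2.11), the osteopontin gene Spp1 (2.03), Ccl8 (2.00, adjusted p = 0.725, limma) and the ribosomal gene Rpl3 (1.865). On the lower side they were Ly6i (-2.545), Ccl24 (-2.37, adjusted p = 0.797, limma), Chil3 (-2.33), the arginine transporter gene Slc7a2 (-1.99) and the VEGF receptor gene Flt1 (-1.90). Adjusted p of the other 8 was 1.82e-15 to 0.00762 (limma). Epcam was higher by 1.19 (adjusted p = 7.69e-04, limma). With BMT replicate 3 in the fit, at 10 or more cells, 0 of 6734 genes passed and 141 had an unadjusted p under 0.05. A limma fit over all clusters with the library as a random block also called 0 genes, with 173 at an unadjusted p under 0.05. The calls thus rest on comparing 1 library with BMT replicates 1 and 2 alone.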

How the data were processed

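The deposited values of the donor table were natural logs of 1 plus UMIs per 10000. The submitters' processing notes name kallisto, bustools, Seurat and build GRCm38. Mitochondrial UMIs were deposited in percent, and latent time was deposited as a fraction. The authors state that cells with few genes or many mitochondrial transcripts and likely doublets had been removed, and no doublet caller was run again. After undoing the log, 100% of 28329689 values were whole UMIs within a tolerance of 0.001. In the median cell 91.3% of UMIs fell on the 15155 genes listed, and 31 ISG_Mono cells lay outside the stated limits on genes or mitochondrial UMIs.

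CP10K was averaged over cells per library and annotated cluster. Genes were kept if either cluster averaged 0.1 CP10K over the libraries with 20 or more cells in both. Named genes were the markers, list genes and, per direction, the 10 with the largest smallest-library difference (5 between labels, by mean difference). Labels were compared with limma 3.58.1 (trend, robust; statmod 1.5.0) in R 4.3.3, with Benjamini-Hochberg adjustment over all genes. Python 3.11.15 served for the other steps, with pandas 2.3.3, SciPy 1.17.1, NumPy 2.4.6 and matplotlib 3.10.9 (plots). The scripts were tested on simulated data. The members and gene lists were chosen with earlier results of these data known. Libraries are the replicates, and no source says which came from separate mice. In the main label fits, at 20 or more cells, p-values rest on the spread between BMT replicates 1 and 2, moderated over genes. The BMT + T library adds no spread to them. The authors' files of keratinocytes and host cells were not used here. BMT replicate 1 had 34011138 UMIs, replicate 2 had 64343817, replicate 3 had 2982296 and BMT + T had 9405095. One gene of the signalling list is not reported here by its own value.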

Additional observations from a re-analysis of the deposited data

Results flagged for a closer look

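Among the GTPase and effector genes and the markers Isg15, Cxcl9 and Gbp2, which were the genes searched, 14 had a difference between ISG_Mono and Mono that lay on opposite sides of 0 under the 2 labels, with a test of that change that passed in limma at 20 or more cells. All 14 were lower in ISG_Mono than in Mono in BMT replicates 1 and 2 and higher in the BMT + T library. In BMT replicate 3, 10 were above 0 and 4 below, with Upp1 at -2.87, Cd80 at -0.96, Il1b at -0.80 and Acod1 at -0.155 on the side of BMT replicates 1 and 2. Between BMT replicates 1 and 2 and BMT + T, levels moved more in Mono than in ISG_Mono for each gene but Pdcd1lg2. Cd40 in Mono was at 5.93 and 4.68 against 0.462 CP10K, and in ISG_Mono at 3.35 and 3.765 against 2.99. Pdcd1lg2 in ISG_Mono was at 0.0403 and 0.0547 against 0.291 CP10K. The change of the log2 difference was 2.11 for Cxcl9, 1.86 for Gbp2 and 1.71 for Gbp5. For the surface proteins of T cell contact it was 2.14 for Cd274, 3.02 for Cd40, 1.08 for Cd80 and 1.98 for Pdcd1lg2. Among cytokine genes Il1b changed by 1.73, Il27 by 1.67 and Tnf by 1.09. Acod1, which makes itaconate, changed by 1.48, the uridine phosphorylase gene Upp1 by 2.87, and the serpin genes Serpina3f and Serpina3g by 1.39 and 2.70.

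None of the 14 passed once BMT replicate 3 entered at 10 or more cells (16 cells of ISG_Mono). The change then ran from 0.55 for Cxcl9 to 3.04 for Upp1. The libraries that picked these genes stay in that fit, so its direction gives no further support. In the fit with at least 20 cells, 315 genes of 7138 passed as higher under BMT + T, of which 181 changed side in this way, and 573 passed as lower, of which 280 changed side in the opposite way. The library names join BMT replicates 1 and 2 (DM1, DM2) and BMT replicate 3 with BMT + T (DMBMT, DMBMTT). BMT replicate 3 thus shares its label with BMT replicates 1 and 2 and this naming with BMT + T. Of the 14 genes, 10 lay there on the side of BMT + T and 4 on the side of BMT replicates 1 and 2. This naming and the number of cells cannot be told apart here, and the label BMT + T rests on 1 library. The part of each was not tested.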

How the results depend on the processing

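For the counts of genes beyond 1 in every library, the pseudocount and the scale mattered most. The mean of the deposited log values, a compressed scale, gave 5 higher and 3 lower genes against Mono and 8 higher and 2 lower against MC. A pseudocount of 0.01 gave 109 and 66 against Mono and 121 and 57 against MC, and a pseudocount of 1 gave 8 and 5, and 13 and 1. At least 10 cells gave 17 lower genes against Mono. Leaving out 1 library gave 52 to 86 higher and 32 to 67 lower genes against Mono and 24 to 48 lower genes against MC. The median of the antiviral list fell from 0.84 to 0.445 against Mono and from 1.56 to 0.80 against MC with a pseudocount of 1, and to 0.38 and 0.65 with the log values, which took the GTPase median against MC from 1.08 to 0.43. These medians stayed above 0, while the GTPase median against Mono, -0.07, ran from -0.155 to 0.03 when 1 library was left out.

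Between labels within ISG_Mono, the 177 genes became 517 with a pseudocount of 0.01, 23 with a pseudocount of 1, 17 with the log values, 112 with limma voom on summed UMIs, and 0 at 10 or more cells or in the fit over all clusters with library as a random block. That fit without BMT replicate 1 or 2 gave 0, with 25 and 21 genes at an unadjusted p under 0.05. Leaving out the BMT + T library leaves no comparison. The cause of these changes was not tested. The share difference between labels, -11.8 percentage points, moved by less than the spread of the BMT libraries under each alternative, from -18.9 to 1.87 when 1 library was left out. No paired analysis was possible because the labels share fewer than 2 replicate numbers. BMT replicate 3, with 16 cells, limits every statement on the labels.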

Other observations

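The 16 ISG_Mono cells of BMT replicate 3 carried higher levels of several monocyte chemokine and macrophage genes than those of the other libraries. Ccl8 was at 17.6 CP10K there against 0.159 to 1.94 in the other 3 libraries, Ccl12 at 12.3 against 0.803 to 2.10, and Apoe, the lipid carrier gene, at 11.6 against 0.3705 to 1.735. Pf4 was at 6.335 CP10K against 0.2756 to 2.60. In the same cells Ccl17 was at 0.698 CP10K against 6.025 to 13.05, and Nos2 at 0.0317 against 0.340 to 0.564. These values rest on 16 cells and 227285 UMIs. Mono of BMT replicate 3 was high in Apoe and Pf4 as well, at 22.9 and 18.7 CP10K, as was Mono of BMT + T at 12.7 and 14.35. In BMT replicates 1 and 2, Mono had 0.457 and 1.03 CP10K of Apoe and 0.210 and 1.88 of Pf4. Ccl8 and Ccl12 in Mono of BMT replicate 3 lay within the values of Mono in the other libraries.

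Antiviral genes were not limited to ISG_Mono. In BMT replicate 1 the 24 cells of Hmox1_Mono had Rsad2 at 3.43 CP10K against 1.44 in ISG_Mono, and a median antiviral sum of 110.4 CP10K against 107. In BMT replicate 2, Rsad2 was at 4.30 CP10K in Hmox1_Mono and 4.35 in ISG_Mono, while the median sums were 53.7 and 127 CP10K.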
